A study of Drosophila melanogaster with 3 samples.

Results

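bru3, Rbp6, olf413 and tei are 4 very long Drosophila melanogaster genes, of 18277 genes on the chromosome arms of the Ensembl annotation. They were selected on measured values of these same libraries, as long genes with many weak CG16779-GFP regions, so their numbers of regions, ranks and replicate overlap are given as a description and carry no test. All summits inside a gene or within 500 bp of its ends were taken. That gave 209 summits in the pooled list of 30000 regions and 1 in the reproducible (IDR) set of 4822 peaks. The replicate lists of 30000 regions each held 147 such summits in replicate 1, 98 in replicate 2 and 245 in replicate 3. The description as genes with weak regions held for bru3, olf413 and tei, which had no IDR summit, but not for Rbp6, whose promoter carried 1.

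The material was whole prepupae, males and females pooled, of a line in which an eGFP exon inserted in an intron of CG16779 makes the gene produce a CG16779-GFP fusion protein. Chromatin was precipitated with an anti-GFP antibody in 3 biological replicates, which form the only group, and no other genotype, treatment or time was compared. The age of the animals is given as unknown, and whole animals mix all tissues, so a region bound in few cells and a region bound weakly in many cannot be told apart. The replicate 3 list stands apart from the others: 9.87% of its regions lay on X, against 18.0% in replicate 1 and 18.0% in replicate 2, and 20.3% lay within 500 bp of a transcription start site, against 27.0% and 29.7%. Summit numbers per gene and the overall share of recurrent regions are also given without it.

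In chromatin immunoprecipitation, a peak caller scores stretches of the genome by how many precipitated fragments pile up there relative to a control, and the summit is the point of greatest signal. The IDR step weighs how well ranks repeat between replicates, and the longer lists that feed it hold weak regions and background on purpose. Here the 4822 IDR peaks are the strongest regions of the pooled list. Having no IDR summit and having no pooled rank within 4822 are therefore the same fact, and a region below the set can still recur in every replicate. Long fly genes consist mostly of introns, which in many developmental and neuronal genes hold enhancers, alternative promoters and small nested genes.

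bru3 and Rbp6 encode RNA-binding proteins of different families, olf413 an enzyme and tei a cell surface protein. bru3 belongs to the Bruno/CELF family, whose members control splicing and translation. The Rbp6 protein is related to Musashi, a translational regulator known from neural precursor cells. The olf413 product resembles the copper-dependent monooxygenases that make neurotransmitters such as octopamine. tei, also listed as faint sausage, encodes an immunoglobulin-domain adhesion protein required in the embryonic nervous system.

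bru3 (FBgn0264001) spans 281 kb on the minus strand at chr3L:13521907-13803400 of dm6, with 18 annotated transcripts and 3 start sites. Rbp6 (FBgn0260943) spans 179 kb on the minus strand at chr3L:17058774-17238212, with 7 transcripts and 2 start sites. olf413 (FBgn0037153) spans 112 kb on the plus strand at chr3L:22136090-22247702, with 2 transcripts from 1 start site. Own exons cover 4.55% of bru3, 8.70% of Rbp6, 7.48% of olf413 and 4.73% of tei, so at least 91.3% of each gene is intronic. The annotation places 5 small genes inside bru3, 1 inside Rbp6, 3 inside olf413 and 6 inside tei.

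The sequences around the 3 best-ranked pooled summits of bru3, Rbp6 and olf413 are shown because the ranks and replicate values below turn on these regions. Each is 61 bases of the dm6 plus strand centred on the summit, read from the RefSeq copy of release 6. Capitals mark matches to any of 8 short words searched on both strands, namely GAGAG of the repeats that GAGA factor binds, GATAA as the core that GATA factors bind, CACGTG as the palindromic E-box, AGGTCA as the core that nuclear receptors read, ATCGATA as part of the replication-related element that DREF binds, and the simple repeats CACACA, with TGTGTGT overlapping its complement, and AAAAAAA. A capital CTCTC is GAGAG read on the minus strand.
bru3, intron, chr3L:13710498-13710558: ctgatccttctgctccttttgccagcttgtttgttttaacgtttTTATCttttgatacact
bru3, intron 820 bp from a start site, chr3L:13667539-13667599: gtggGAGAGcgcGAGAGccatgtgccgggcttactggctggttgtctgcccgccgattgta
bru3, intron, chr3L:13543685-13543745: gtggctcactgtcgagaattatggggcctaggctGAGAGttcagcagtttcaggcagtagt
Rbp6, promoter, chr3L:17238329-17238389: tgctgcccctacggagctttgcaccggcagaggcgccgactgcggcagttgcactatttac
Rbp6, intron, chr3L:17226575-17226635: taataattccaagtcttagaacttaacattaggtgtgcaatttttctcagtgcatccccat
Rbp6, intron, chr3L:17123543-17123603: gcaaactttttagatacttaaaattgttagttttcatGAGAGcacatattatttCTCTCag
olf413, intron, chr3L:22192410-22192470: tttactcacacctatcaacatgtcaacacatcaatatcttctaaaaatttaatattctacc
olf413, intron, chr3L:22180333-22180393: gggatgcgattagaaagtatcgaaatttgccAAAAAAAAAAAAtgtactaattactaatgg
olf413, promoter, chr3L:22135984-22136044: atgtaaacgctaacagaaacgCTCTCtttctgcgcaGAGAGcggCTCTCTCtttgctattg

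The windows varied in composition within each gene. In Rbp6 the promoter window had 62.3% G+C and the intronic ones 34.4% and 27.9%. In olf413 the promoter window had 47.5% and the intronic ones 27.9% and 29.5%. In bru3 the window 820 bp from a start site had 63.9%, and the intronic ones farther out had 36.1% and 52.5%, the second of these above the olf413 promoter.

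GAGAG stood both near start sites and far from them. It is in the olf413 promoter and the start-proximal bru3 window, and also in the third bru3 window and the third Rbp6 window, both deep in introns, and 9.21% of the 61-base windows at other pooled regions outside the IDR set hold it. The strongest bru3 window holds GATAA on the minus strand, as do 11.2% of the other windows, and an olf413 intronic window holds AAAAAAA, as do 7.75%. No searched word stands in the 61 bases of the Rbp6 promoter window, the other Rbp6 window or the strongest olf413 window. Within 100 bp of the summit, however, the Rbp6 promoter peak has both GAGAG and GATAA.

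bru3 carried many summits and no strong one. It had 55 pooled summits, 18 in replicate 1, 20 in replicate 2 and 90 in replicate 3, and none in the IDR set. Its best ranks were 11729 in the pooled list, 13673 in replicate 1, 12674 in replicate 2 and 7801 in replicate 3. No list thus placed a bru3 summit within its first 4822 ranks, the depth of the IDR set, and the highest pooled score in the gene was 85.3, against 173.8 for the weakest IDR peak. These scores are the authors' own and were compared only within the pooled list. Over the replicates bru3 had 42.7 ± 41.0 summits (SD, n = 3), a spread set by replicate 3, whose number was 4.74 times the mean of replicates 1 and 2.

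The strongest bru3 region, with its summit at chr3L:13710528, lay in an intron 43779 bp from the nearest start site and ranked 26583 in replicate 1, 19782 in replicate 2 and 7801 in replicate 3. The next, at chr3L:13667569, lay 820 bp from an internal bru3 start site. It ranked 14922, 24924 and 15110 in replicates 1, 2 and 3, the most even of the leading bru3 regions. The third, at chr3L:13543715, lay near the 3′ end of the gene and ranked 28903 in replicate 1 and 15681 in replicate 3, with no overlapping region in replicate 2. At the start sites themselves bru3 was nearly empty. None of the 3 had a pooled summit within 500 bp, and a single replicate 3 summit of rank 27395 lay 25 bp from the 5′-most one.

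Rbp6 combined 1 reproducible promoter peak with a long run of weak intronic regions. It had 68 pooled summits, 54 in replicate 1, 38 in replicate 2 and 81 in replicate 3, or 57.7 ± 21.7 per replicate list (SD, n = 3). The IDR peak spans chr3L:17238139-17238578, with its summit 147 bp upstream of the 5′-most Rbp6 start site, in the gap before the 3′ end of Afg3l2. Its pooled score was 259 and its pooled rank 2714, and it ranked 3837 in replicate 1, 1437 in replicate 2 and 4480 in replicate 3. The peak thus lay within the depth of the IDR set in every list. It lies outside the annotated gene, within the 500 bp margin; the nearest summit of the 4 genes below the IDR set was that of olf413 at pooled rank 5653.

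The best Rbp6 summit inside the gene, at chr3L:17226605 in an intron 11607 bp from the start, had pooled rank 6707. It was found at rank 7861 in replicate 1, 10347 in replicate 2 and 6205 in replicate 3. A further intronic region at chr3L:17123573 had pooled rank 7714 and ranks 10352, 11941 and 6210 in replicates 1, 2 and 3. Both stood below the IDR set but were recovered in each replicate. The internal Rbp6 start site at chr3L:17147969 had a pooled summit 143 bp away of rank 9149, found at rank 8910 in replicate 1 and 8788 in replicate 3 and missing from replicate 2.

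olf413 came closest to the IDR set among the other 3 genes. It had 45 pooled summits, 48 in replicate 1, 28 in replicate 2 and 33 in replicate 3, or 36.3 ± 10.4 per replicate list (SD, n = 3). It was the only one of the 4 in which replicate 3 did not hold the most summits. Its strongest region, at chr3L:22192440 in an intron 56350 bp from the olf413 start, had a pooled score of 155 and pooled rank 5653. That region ranked 6767 in replicate 1, 11606 in replicate 2 and 3550 in replicate 3, so replicate 3 alone placed it within the depth of the IDR set.

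The next olf413 region, at chr3L:22180363, lay 2764 bp from the start of the nested lncRNA:CR45971 and ranked 7349 in the pooled list, 7205 in replicate 1, 11847 in replicate 2 and 7504 in replicate 3. The promoter region, at chr3L:22136014 and 76 bp upstream of the start site, ranked 8772 in the pooled list, 6105 in replicate 1 and 6734 in replicate 2. Replicate 3 had no region there, although that list holds the strongest intronic call in the gene.

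tei (FBgn0000633), 126 kb on the plus strand at chr2R:13623044-13749367 with 2 transcripts from 1 start site, had the lowest mean number of summits. Its numbers were 41 in the pooled list, 27 in replicate 1, 12 in replicate 2 and 41 in replicate 3, or 26.7 ± 14.5 per replicate list (SD, n = 3). Its best ranks were 9686 in the pooled list, 10613 in replicate 1, 7681 in replicate 2 and 6395 in replicate 3, and its highest pooled score was 100. The leading summit, at chr2R:13673987, fell in an exon of the nested lncRNA:CR45032, 646 bp from that gene's start. It ranked 16250 in replicate 1 and 6622 in replicate 3 and had no overlapping region in replicate 2. The following summits were intronic: the one at chr2R:13681063 had pooled rank 9753 and ranks 12453, 14081 and 9203 in replicates 1, 2 and 3. The one at chr2R:13702852 had pooled rank 10169 and ranks 10649, 26984 and 6395.

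The tei promoter drew several weak summits rather than 1 strong one. Within 500 bp of its start site lay 3 pooled summits, the best of rank 14549 and 488 bp away in the 5′ UTR. The best replicate ranks there were 15170 in replicate 1, 7681 in replicate 2 and 10999 in replicate 3. The replicate 2 summit, 51 bp from the start, was the strongest call of that replicate anywhere in tei.

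**Figure D1:**
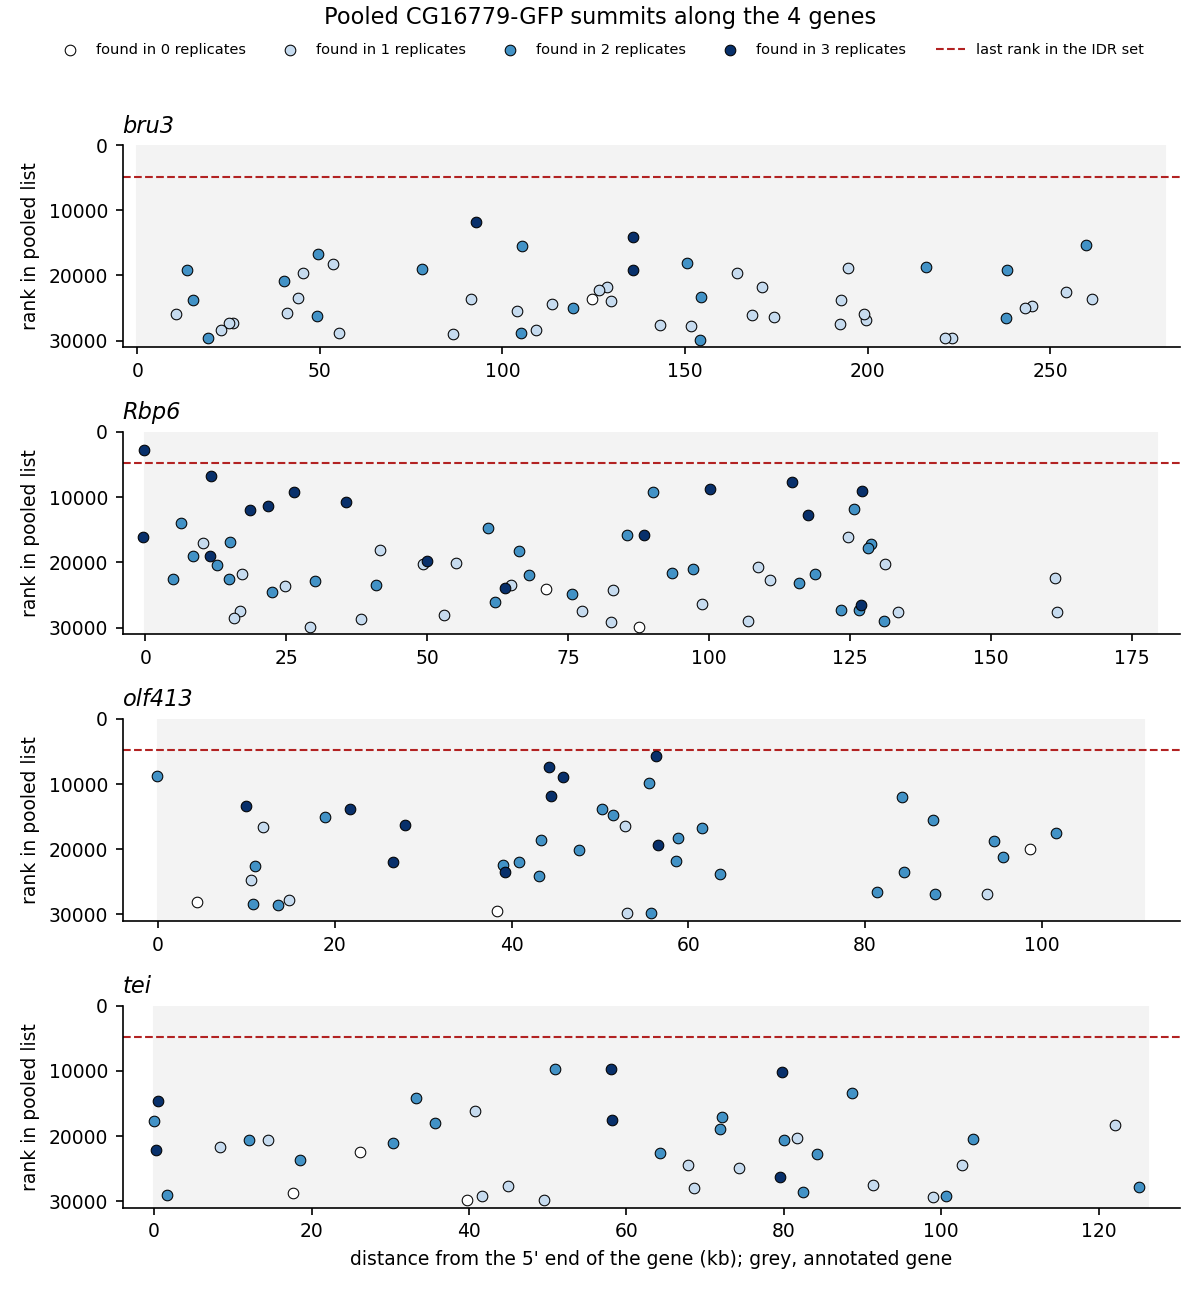
Pooled summits of the 4 genes by distance from the 5′ end of the gene (horizontal, kb, grey for the annotated gene) and rank in the pooled list (vertical, strongest at the top), shaded by the number of replicates with an overlapping region. A single summit, at the Rbp6 promoter, lies above the dashed line that marks rank 4822, the depth of the IDR set.

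The summits were spread along the genes. Widening the window around each gene to 2000 bp added 8, for 217 in all. The added flanks are short beside the genes, so this small number does not mean that they are sparse. When each gene was divided into 10 equal segments from its 5′ end, the pooled list left no segment of bru3, Rbp6 or tei empty and 1 segment of olf413 empty. Rbp6 had 14 pooled summits in its first segment and 1 in each of its last 2. The widest stretch without a pooled summit was 27.9 kb in Rbp6, 22.6 kb in bru3, 18.1 kb in tei and 17.8 kb in olf413. Median spacing was 3.13 kb in bru3, 1.68 kb in Rbp6, 1.39 kb in olf413 and 2.44 kb in tei, so the 2 genes with the most closely spaced summits were Rbp6 and olf413. Some summits shared a broad interval, and merging overlapping regions left 49 of 55 in bru3, 59 of 68 in Rbp6, 34 of 45 in olf413 and 35 of 41 in tei.

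The IDR peaks nearest to these genes mostly lay well outside them. The closest ones to bru3 were 21.8 kb beyond its 3′ end, near Spt20, and 114673 bp beyond its 5′ end, near Rgl. tei had its nearest IDR summits 35.9 kb before its start and 73.0 kb past its end. For olf413 the distances were 60.0 kb upstream, at the start of RpLP0, a ribosomal protein gene, and 20.0 kb downstream, near Csp. Past the 3′ end of Rbp6 the nearest was 10.6 kb away.

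Summits of the 4 genes were mostly intronic, as is most of the sequence of these genes. Introns held 193 of 209 pooled summits, or 92.3%, against 52.9% of other pooled regions outside the IDR set and 55.1% of other IDR peaks. The exact 95% interval of the share in the 4 genes is 87.9% to 95.6% and covers counting error over regions only. By gene the intronic share was 98.2% in bru3, 92.6% in Rbp6, 93.3% in olf413 and 82.9% in tei. Exons of any gene cover 8.34% of the sequence searched and held 12 summits, or 5.74%. tei was the exception: exons of any gene, those of its nested genes included, held 14.6% of its summits for 13.3% of its sequence. In bru3 they held 1.82% for 5.23%.

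The distance to the nearest annotated start of any gene had a median of 10245 bp in the 4 genes, against 2619 bp for other pooled regions outside the IDR set and 815 bp for other IDR peaks. Summits more than 10 kb from a start site made up 107 of 209, or 51.2%, against 15.7% and 7.47% in those sets. The shares differed among the genes, with 65.5% in bru3, 66.2% in Rbp6, 24.4% in olf413 and 36.6% in tei. olf413 and tei are the shorter genes and hold more nested genes per kb. All 4 are long genes with few start sites of their own, so long distances were partly set by their choice. The share of the searched sequence more than 10 kb from a start site was not computed.

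Within 500 bp of a start site lay 12 of the 209 pooled summits, or 5.74%, and such sequence makes up 2.99% of the windows searched. In the other sets the shares of regions were 20.8% and 42.6%, over genes of all lengths. By gene, tei had 6 such summits (14.6%) for 5.50% of its window, Rbp6 4 (5.88%) for 1.66%, olf413 2 (4.44%) for 3.56% and bru3 0 of 55 for 2.49%. Own start sites accounted for 7 of them, and nested genes for 5. At nested starts, pooled summits lay 327 bp from asRNA:CR43433 in Rbp6 and 100 bp from lncRNA:CR45972 in olf413, with the lncRNA:CR45972 region at rank 16751. Inside tei they lay 168 bp from CG6209, 423 bp from CG13337 and 326 bp from CG18368, which are protein-coding genes. The CG6209 region ranked 16169 in the pooled list and was found in replicate 2 alone. The asRNA:CR43433 region was found in none of the replicates. None of these regions was among the 3 best-ranked of its host gene.

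Regions of the 4 genes were found in all replicates less often than the rest of the pooled list. Outside the IDR set, 34 of 208 member regions, or 16.3%, overlapped a region in all 3 replicate lists, against 8141 of 24970 other pooled regions, or 32.6%. With the Rbp6 promoter peak the number was 35 of 209, or 16.7% (exact 95% interval 12.0% to 22.5%, counting error over regions only). By gene it was 3 of 55 in bru3 (5.45%), 16 of 68 in Rbp6 (23.5%), 10 of 45 in olf413 (22.2%) and 6 of 41 in tei (14.6%). Because neighbouring summits can match the same replicate region, these 35 regions form 26 separate stretches, 2 in bru3, 13 in Rbp6, 8 in olf413 and 3 in tei. At the other end, 9 of 209 regions, or 4.31%, overlapped no replicate region, against 2.99% elsewhere.

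Recurrence was lower at lower ranks, in the 4 genes and elsewhere. For pooled ranks 5001 to 10000, 9 of 13 member regions (69.2%) were found in all 3 replicates, against 69.0% of other regions of those ranks. For ranks 10001 to 15000 the shares were 11 of 20 (55.0%) against 45.4%. For ranks 15001 to 20000 they were 8 of 44 (18.2%) against 24.5%. The better-ranked member regions thus recurred about as often as their rank class did. In the 2 lowest classes the members were below the rest, with 4 of 67 (5.97%) against 13.1% at ranks 20001 to 25000 and 2 of 64 (3.12%) against 8.93% at ranks 25001 to 30000. These low ranks held 32.2% and 30.8% of the member regions, against 19.8% and 19.8% of the others, so most member regions stood where recurrence was low everywhere.

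**Figure D2:**
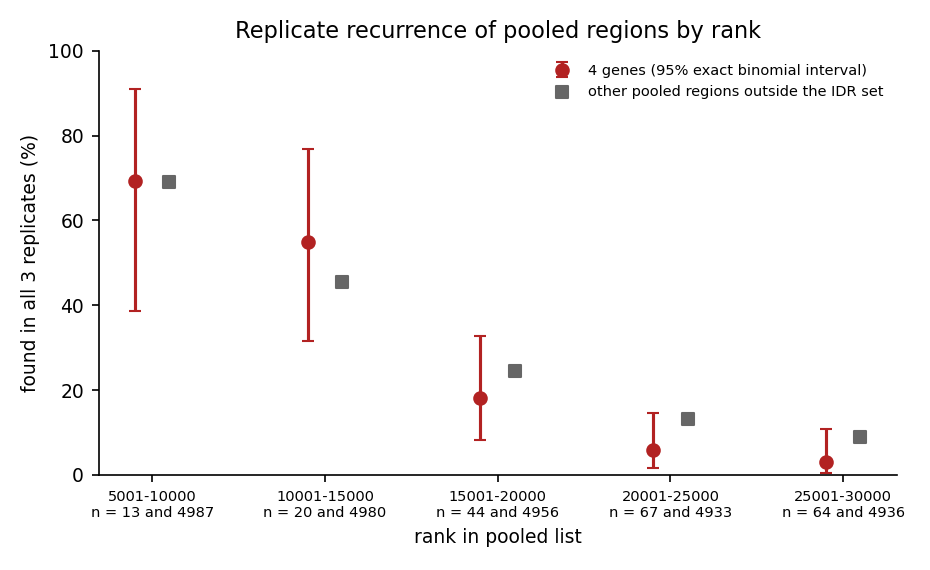
Share of pooled regions outside the IDR set that overlap a region in all 3 replicate lists, by class of pooled rank, for the 4 genes (red points, 95% exact binomial interval) and for other regions (grey squares), with numbers of regions under each class. The red points run between 69.2% and 3.12%. Those of the 2 lowest rank classes lie below the grey squares, with intervals that include them.

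The replicates contributed unevenly at these genes. Of the 209 pooled regions, 120 (57.4%) overlapped a replicate 1 region, 81 (38.8%) a replicate 2 region and 156 (74.6%) a replicate 3 region. The matching shares of other pooled regions outside the IDR set were even, at 68.6%, 65.1% and 67.0%. Regions matched by replicate 3 alone made up 48 of 209 (23.0%) in the 4 genes, against 13.5% elsewhere. That share was 41.8% in bru3, 25.0% in Rbp6, 17.1% in tei and 2.22% in olf413. Without replicate 3, 23.4% of member regions were found in both remaining lists, against 50.2% of other regions. Without replicate 1 the shares were 24.9% and 41.7%, whereas without replicate 2 they were 43.5% and 44.3%.

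The excess in replicate 3 was not a feature of all 4 genes. Replicate 3 held more summits than either other replicate in bru3, Rbp6 and tei, 3 of the 4, while among all 75 protein-coding genes at least as long as olf413 the share was 49.3% (37 genes). Its number relative to the mean of replicates 1 and 2 was 4.74 in bru3, 2.10 in tei, 1.76 in Rbp6 and 0.868 in olf413. Among 50 other long genes with at least 10 pooled summits the median was 0.910 and the highest was 3.85, in Con, an adhesion protein gene, so bru3 lay above every one of them. In 17 of those 50, replicate 3 had the most summits. The cut at 10 leaves out sparser long genes with a larger excess in replicate 3. Myo81F had 49 summits there and 0 in replicates 1 and 2, and CG40006 had 17, against 1 and 0. Without replicate 3 the mean number of summits per list was 19.0 in bru3, 46.0 in Rbp6, 38.0 in olf413 and 19.5 in tei. The replicate 3 list as a whole is poorer in X-linked regions, and these genes are autosomal, and the part of that shift in the excess was not tested.

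**Figure D3:**
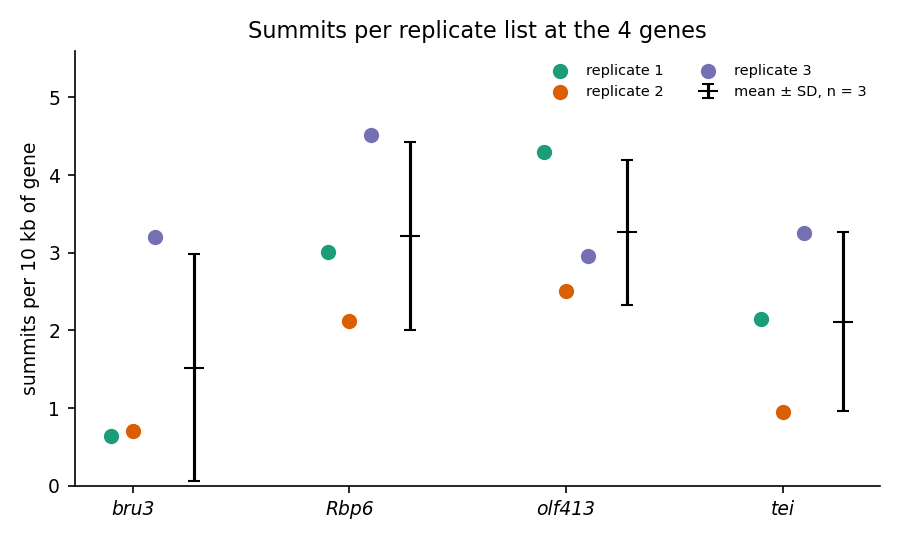
Summits per 10 kb of gene in each replicate list (points) for the 4 genes, with the mean and SD of the 3 lists (black). In bru3 replicates 1 and 2 stand at 0.639 and 0.710 and replicate 3 at 3.20, whereas in olf413 replicate 1 is highest at 4.30.

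The summits that replicate 3 added in bru3 were mostly unmatched. In that list 71 of 90 bru3 summits (78.9%) overlapped no region of replicate 1 or 2, against 40.3% over the whole replicate 3 list. Of the 90, 41 (45.6%) overlapped a pooled region, against 68.7% over the whole replicate 3 list. Unmatched bru3 summits had a median rank of 21061 and a best rank of 10795, and matched ones a median of 19017 and a best of 7801. The unmatched set was therefore not limited to the end of the list, with 13 of its 71 summits among the 15000 strongest. In Rbp6 the replicate 3 share without a match was 40.7%, close to that of the whole list, in tei 48.8% and in olf413 24.2%.

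For the other replicates the genes ranked differently. Unmatched summits of replicate 1 made up 43.8% in olf413, 33.3% in bru3, 25.9% in Rbp6 and 22.2% in tei, against 23.1% over its list. For replicate 2 the numbers were 10 of 20 in bru3 and 6 of 12 in tei, with shares of 31.6% in Rbp6 and 17.9% in olf413, against 24.9% over its list. G+C content did not set the unmatched summits apart within these genes. In replicate 3 it averaged 45.0% ± 7.51 at 132 unmatched member summits and 45.8% ± 7.39 at 113 matched ones (SD over summits), while over the whole list the values were 46.0% ± 8.19 and 41.7% ± 8.61.

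**Figure D4:**
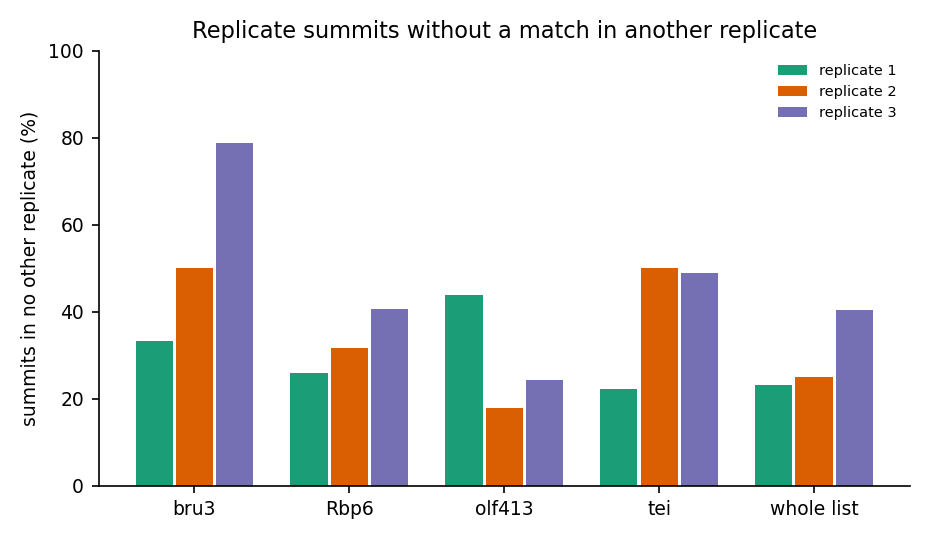
Share of each replicate's summits that overlap no region of the other replicates, in the 4 genes and in the whole list, by replicate. bru3 in replicate 3 is the tallest bar at 78.9%, against 40.3% for the whole list, and olf413 has its tallest bar in replicate 1 at 43.8%.

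Among long genes, olf413, Rbp6 and tei were dense in pooled summits and bru3 was near the middle. Both density and strength entered the choice of the 4, so their places among long genes are a description. Of the 75 protein-coding genes at least 111613 bp long, 45 (60.0%) had an IDR summit in the same window, and among the 4 genes only Rbp6 did. Pooled density was 4.03 summits per 10 kb in olf413, 3.79 in Rbp6, 3.25 in tei and 1.95 in bru3, places 5, 11, 18 and 37 of the 75. The median of the 4 was 3.52, against 1.89 in the other 71. The list-wide mean was 2.18 per 10 kb, so bru3 was near the genome's own density. By best pooled rank the order was Rbp6 at place 39, olf413 at 47, tei at 52 and bru3 at 55, with a median best rank of 7669 in the 4 genes and 2295 in the other long genes.

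There were 30 long genes without an IDR summit, 3 of them bru3, olf413 and tei. The other 27 had a median of 0.133 pooled summits per 10 kb and at most 2.60, in Con, with 37 summits, and many of them had next to no summit in replicates 1 and 2. olf413 at 4.03 and tei at 3.25 lay above all 27, and bru3 at 1.95 lay below Con alone. Long genes with an IDR summit, Rbp6 aside, had a median density of 2.50. The genes without IDR summits include 4 on Y, and 7 of the 75 had no pooled summit. Some long genes overlap each other and share summits, so they are not independent.

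**Figure D5:**
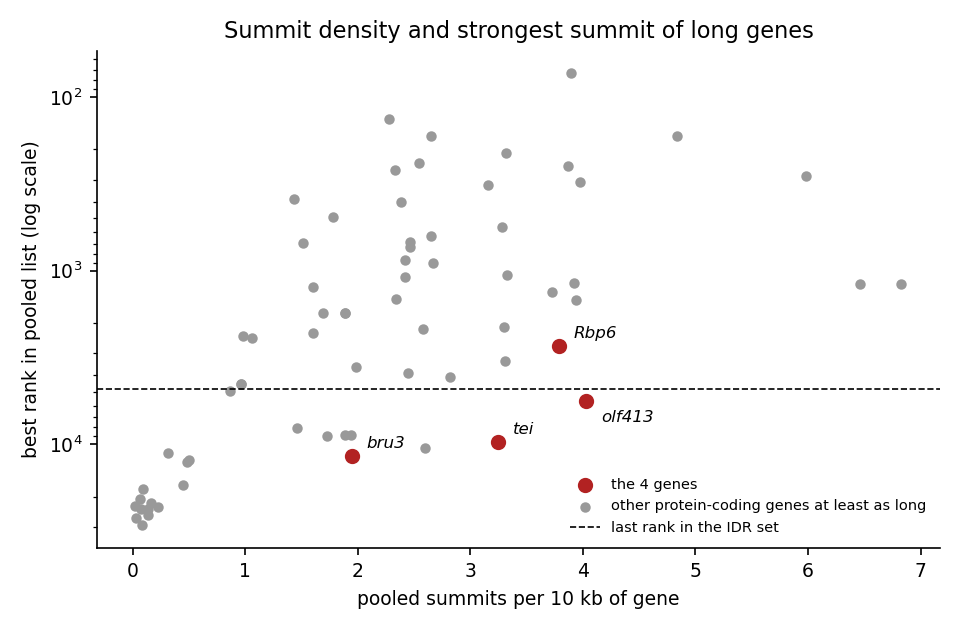
Pooled summits per 10 kb (horizontal) against the best rank in the pooled list (vertical, log scale, strongest at the top) for the 4 genes (red) and the other protein-coding genes at least as long that had a pooled summit (grey). The dashed line marks the depth of the IDR set; olf413, tei and bru3 lie below it and Rbp6 above it at rank 2714.

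Likeness to the 4 genes was measured over the 75 long genes by 8 values, the summit density and best rank in the pooled and replicate lists, each scaled by its SD. The nearest to the mean of the 4 were CG45263 at a distance of 0.870, Pde1c at 0.938, CG34353 at 0.966, dpr6 at 0.993 and Con at 1.18. Among the 4 themselves tei was closest to their mean at 0.545, followed by olf413 at 1.11, Rbp6 at 1.23 and bru3 at 1.54. bru3 and Rbp6 were thus farther from the mean profile than each of the 5 named genes, and olf413 farther than 4 of them. Pde1c encodes a cyclic nucleotide phosphodiesterase, and dpr6 an immunoglobulin-domain protein of neuronal surfaces. Replicate 3 held the most summits in each of these 5: Con had 52 there, against 13 in replicate 1 and 14 in replicate 2, and dpr6 had 54, against 21 and 19. The replicate lists entered the likeness measure, so this trait was partly fixed by the choice of the 5. Over all 75 long genes the share was 49.3%. CG45263 and Pde1c each had 1 IDR summit, and the other 3 none.

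Relatives of bru3, Rbp6 and olf413 ranged between no summit and several IDR peaks. Of 5 family members, bru2 and msi had an IDR summit and bru1, Tbh and Phm had none. With 12 further RNA-binding protein genes of nerve or muscle, which belong to other families, 12 of 17 had an IDR summit and 15 a pooled one, at a median of 2.58 pooled summits per 10 kb. The 4 genes were chosen on their IDR and pooled summits, so nothing is read from setting these numbers against theirs. In the Bruno/CELF family, bru3 with no IDR summit stood beside bru1, the oskar translation repressor, with 0 IDR and 12 pooled summits and a best rank of 4943. bru2 had 2 IDR and 22 pooled summits and a best rank of 3228. Replicate 3 held 26 summits in bru1, against 20 in replicate 1 and 15 in replicate 2, and 31 in bru2, against 12 and 12. Most of the 17 relatives did not share this trait. Replicate 3 held more summits than either other replicate only in bru1, bru2, Phm, shep and mbl. In msi it held the fewest, 12 against 29 and 15.

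Rbp6 had 1 IDR summit, and msi, the Drosophila Musashi gene, had 4 IDR and 15 pooled summits and a best rank of 164. The relatives of olf413 by enzyme family were sparse: Tbh, the tyramine beta-hydroxylase that makes octopamine, had 0 IDR and 4 pooled summits with a best rank of 15418, and Phm, a peptide-amidating enzyme, had neither. Among the 12 further RNA-binding protein genes, 10 had an IDR summit, and their median density was 2.78 per 10 kb. The strongest regions there belonged to Syp at rank 135 and elav, the pan-neuronal RNA-binding protein gene, at rank 150. The weakest was in fne, an elav relative, at rank 7365, and nito had no summit in any list. Gene lengths differ widely within these lists, from 3.28 kb in Phm to 169 kb in heph, and short genes offer less room for a summit.

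G+C content at the summits was above that of other weak regions, intronic ones included, and above that of the IDR peaks. Within 100 bp of the summit, G+C averaged 45.1% ± 7.86 over the 209 member summits (SD over summits), against 43.1% ± 8.30 at the pooled regions of other loci below the IDR set, 42.0% ± 7.68 at the intronic ones among those and 38.9% ± 8.64 at other IDR peaks. The means were 44.8% in bru3, 44.6% in Rbp6, 45.4% in olf413 and 45.7% in tei. The genes themselves have 42.4%, 42.1%, 44.7% and 43.4%, so summits in bru3, Rbp6 and tei were over 2 points richer than their gene and those in olf413 less than 1 point.

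GAGAG was found within 100 bp of 64 of 209 member summits, or 30.6% (exact 95% interval 24.4% to 37.4%), against 27.5% of other pooled regions outside the IDR set and 33.5% of other IDR peaks. By gene it was 44.4% in olf413, 30.9% in Rbp6, 26.8% in tei and 21.8% in bru3. In olf413 the word stood at 20 of 45 summits, the promoter region shown above among them. The Rbp6 promoter peak also has it within 100 bp, outside the bases shown above. Among the 35 regions found in all 3 replicates it was 42.9% (exact 95% interval 26.3% to 60.6%), and among the other 174 it was 28.2%, inside that interval. The 35 form 26 separate stretches, so some windows share bases. The share at recurrent regions of other loci was not computed.

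The remaining words went both ways. GATAA stood at 23.9% of member summits (exact 95% interval 18.3% to 30.3%), against 32.4% of other weak regions and 33.6% of the intronic ones. AAAAAAA stood at 15.3% (10.7% to 20.9%), against 20.9% and 23.7%. CACACA stood at 25.8% (20.0% to 32.3%), against 21.2% and 22.7%, both inside its interval. TGTGTGT, which overlaps CACACA, stood at 16.3% (11.5% to 22.0%), against 11.5% and 12.7%. The AAAAAAA and TGTGTGT intervals end at the share of other weak regions, and the TGTGTGT one includes the intronic share. The rare words AGGTCA (1.44% against 4.04%), ATCGATA (0.957% against 1.99%) and CACGTG (3.83% against 2.71%) rested on 3, 2 and 8 member summits. A match is a description of letters in the window and not evidence of a site.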

How the data were processed

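The deposited files are region lists on dm6 and dm3 from 3 biological replicates of anti-GFP ChIP-seq, and the dm6 lists were used. Each region carries a score that the authors' caller assigned, on a scale of its own in each list. Scores served only for ranking and description inside 1 list. Chromatin was sonicated, per the labels. Which aligner, caller and IDR threshold were used is not stated in any source at hand, and read depth is unknown. The pooled and replicate lists hold 30000 regions each, and the 4822 IDR peaks are the strongest of the pooled list. A list of fixed length fills up with weak regions, so recurrence at low ranks depends on that length.

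Genes came from Ensembl release 115 on the same assembly, with transposable elements left out, and 0 regions ran past an arm's end. Summits in a gene or within 500 bp were taken, and a region counted as found where at least 1 bp overlapped. Classes were assigned in the order coding exon, UTR, other exon, intron and intergenic. Words and G+C were read from 201 bases around each summit. Intervals are exact binomial (Clopper-Pearson) at 95%. Rank, overlap and annotation steps were tested on simulated data. Python 3.11.15, numpy 2.4.6, scipy 1.17.1 and matplotlib 3.10.9 were used.

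The genes, the relatives' lists and the words were chosen with earlier results of these data known. Named long genes are the 5 nearest in profile, and named regions the 3 best-ranked per gene, those beside nested starts and examples from the relatives. With 1 group, no condition was compared and no test was run. Control libraries were not analysed here.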

Additional observations from a re-analysis of the deposited data

How the results depend on the processing

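Of 40 alternatives to the 8 main values, 24 left the value within 1.5 times or within its replicate spread or interval. The 209 pooled summits became 34 among the 15000 strongest regions and 14 among the 10000 strongest, and the mean of 163 per replicate list became 39.7 among the 15000 strongest. Leaving out 1 replicate gave means between 122 and 196. For bru3 alone, the mean of 42.7 became 19.0 without replicate 3, and lay between 19.0 and 55.0 over the 3 omissions. A window of 0 bp removed the IDR summit (0 in place of 1) and set the best rank of the 4 genes at 5653 and of Rbp6 at 6707. The mean of the replicates' best ranks was 2941, between 2494 and 3694 with 1 replicate left out. The share found in all replicates, 16.7%, was 9.09% with summits within 150 bp (16.8% elsewhere), 11.5% with overlap of at least 50% of the shorter region (23.5%) and 5.74% with the 15000 strongest regions of each replicate (14.7%). Found in both remaining lists, it lay between 23.4% and 43.5%. The 94.3% of summits in introns or intergenic flanks became 98.1% when only coding sequence counted as exon. Among the 8 genes at least as long as bru3, 25.0% had an IDR summit. The GAGAG share was 19.6% within 50 bp (15.1% elsewhere), 38.8% within 150 bp (37.1%) and 5.26% for GAGAGAG (5.37%). Merged regions (177), bru3 left out (20.8% found in all replicates) and Y genes left out (63.4%) were chosen after seeing the data. The dm3 lists gave no value per gene, since no dm3 annotation was used. No paired analysis was possible because there is 1 group. Scores without read counts give no measure of depth at any region.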
